A study of Capra hircus with 6 samples.

Results

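The nuclear genes for subunits of the mitochondrial respiratory chain were examined by complex in goat (Capra hircus) adipose mesenchymal stem cells, stromal cells of fat tissue that can turn into fat cells. Members were taken by gene name, as the NDUFA, NDUFB, NDUFC, NDUFS and NDUFV genes of complex I, SDHA to SDHD of complex II and the ATP5 genes of complex V. This gave 59 of the 16262 genes with a symbol, of which 38 belong to complex I by name, 4 to complex II and 17 to complex V. The subunits of complexes III and IV were not analysed here, nor were the transcripts of the mitochondrial genome. The control group is 3 wild-type (WT) libraries, and it is compared with 3 libraries from cells overexpressing TAZ, a coactivator of transcription that the Hippo pathway restrains, encoded by WWTR1. Both groups are labelled as under adipogenic differentiation, and the study's question was the role of TAZ in adipogenesis. The series title also names TNF-α, but no sample label gives a cytokine treatment, and the sources used here do not give the promoter of the transgene, the clone, or the age and number of animals.

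The respiratory chain sits in the inner membrane of mitochondria. Complex I (NADH dehydrogenase) and complex II (succinate dehydrogenase) pass electrons to ubiquinone, from which they reach oxygen through complexes III and IV, and complex V (ATP synthase) uses the proton gradient that results to make ATP. Fat cells build up mitochondria as they form, and most subunits are small proteins encoded by short, abundantly transcribed nuclear genes.

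Levels are given as FPKM, the number of fragments counted for a gene scaled by its length and by the library total, and group values as mean ± SD with n = 3 libraries. Log2 fold changes are TAZ minus control on the log2(FPKM + 1) scale. A gene is said to have risen or fallen when limma's moderated test across all tested genes gave a Benjamini-Hochberg adjusted p below 0.05. The steps between low FPKM values gave totals from 33871397 to 37705644 counted fragments per library, taking the smallest step as 1 fragment, and on that scale 1 FPKM stood for 103 fragments in a tested gene of median length. If a fragment was counted as more than 1 step (once per mate, for instance), the totals and all fragment numbers given here are too high by 1 common factor, to which FPKM values, fold changes and the limma tests on them are indifferent. Where 3 library values are listed, they are those of replicates 1, 2 and 3 in that order. WWTR1 read 30.2, 29.9 and 35.9 FPKM in the controls and 84.6, 118 and 84.2 FPKM in the TAZ libraries. It was 2.99 times as high where it was meant to be overexpressed (adjusted p = 6.91e-07 by limma, log2 fold change 1.54, SE 0.13). The stromal identity of the cells was measured with 14 markers, all detected, whose sum was 30200 to 31600 FPKM in the controls and 27600 to 30100 FPKM in the TAZ libraries. Of them 5 rose, among them PDGFRB (1.72 times) and DCN (1.53 times), and 4 fell, among them ENG (0.619 times) and THY1 (0.785 times). The 12 fat cell markers summed to 21.4 to 24.2 and 20.7 to 23.6 FPKM, most of it CIDEC (18.3 ± 1.31 against 17.8 ± 1.29 FPKM), and 9 of them were below the filter used for tests. LIPE, hormone-sensitive lipase, rose to 2.1 times, CEBPA, a transcription factor of fat cells, fell to 0.514 times, and CD36 and DGAT2, below the filter, were lower in every TAZ library. PPARG, the master regulator of fat cells, stood at 0.058 ± 0.0189 against 0.0834 ± 0.0741 FPKM. Leukocyte markers (8 of 10 measured) summed to 13.6 to 16.7 FPKM in the controls and 26.7 to 27.8 FPKM in the TAZ libraries, which followed CD14 alone (9.58 ± 1.38 against 24.2 ± 0.421 FPKM). CD68 fell to 0.632 times, CD3E and CD79A were lower in every TAZ library, and PTPRC, the pan-leukocyte marker, was at 0 in all 6. The endothelial sum (6 of 8 measured, KDR at 0) of 0.702 to 1.19 and 1.63 to 1.87 FPKM followed FLT1 (0.509 ± 0.154 against 1.51 ± 0.133 FPKM), while PECAM1 was lower in every TAZ library (0.369 ± 0.0842 against 0.0928 ± 0.0318 FPKM). VWF, at very low levels, was higher in every TAZ library (0.0321 ± 0.00871 against 0.0771 ± 0.027 FPKM). Epithelial markers (7 of 7) summed to 0.721 to 0.92 and 0.264 to 0.356 FPKM, with KRT14 and CDH1 lower and EPCAM higher in every TAZ library. Skeletal muscle markers (9 of 13) summed to 1.41 to 2.07 and 0.596 to 0.63 FPKM, with TNNT3, TNNT1 and DES lower and PAX7 higher in every TAZ library. EPCAM, PAX7 and TNNT1 had only 0 to 4, 0 to 6 and 0 to 11 fragments per library. The part of these differences in the results was not tested. In bulk RNA, fewer cells of a type and less RNA per cell cannot be told apart.

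Subunit messages were slightly lower in the TAZ libraries. Of the 58 members that passed the filter of 1 FPKM in at least 3 libraries, 24 fell and 1 rose, against 22.1% of all 10750 tested genes that fell and 15.7% that rose (37.9% changed in either direction). The log2 fold change was negative in 50 of the 58 (33 with the trend of fold change with gene length removed), and its median was -0.21 over the members and -0.050 over all tested genes. In 35 members every TAZ library was below every control library, and in 1 every TAZ library was above, where all tested genes gave 28.7% and 19.7%. The falls were shallow, since the largest took ATP5I to 0.649 times its control level. Relative to the control mean, the median member of complex I stood at -0.015, 0.12 and -0.072 (log2) in the 3 controls and at -0.26, -0.17 and -0.15 in the 3 TAZ libraries. For complex II the medians were 0.010, 0.046 and -0.027 in the controls and -0.21, -0.15 and -0.16 in the TAZ libraries. For complex V they were -0.058, 0.082 and -0.0070 in the controls and -0.30, -0.28 and -0.20 in the TAZ libraries. By these medians TAZ replicate 1 was the lowest library for all 3 complexes and control replicate 2 the highest. Without TAZ replicate 1 the number of members that fell was 15, and without control replicate 2 it was 16. The share of all tested genes that fell also went down, from 22.1% to 16.9% and 17.5%.

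**Figure D1:**
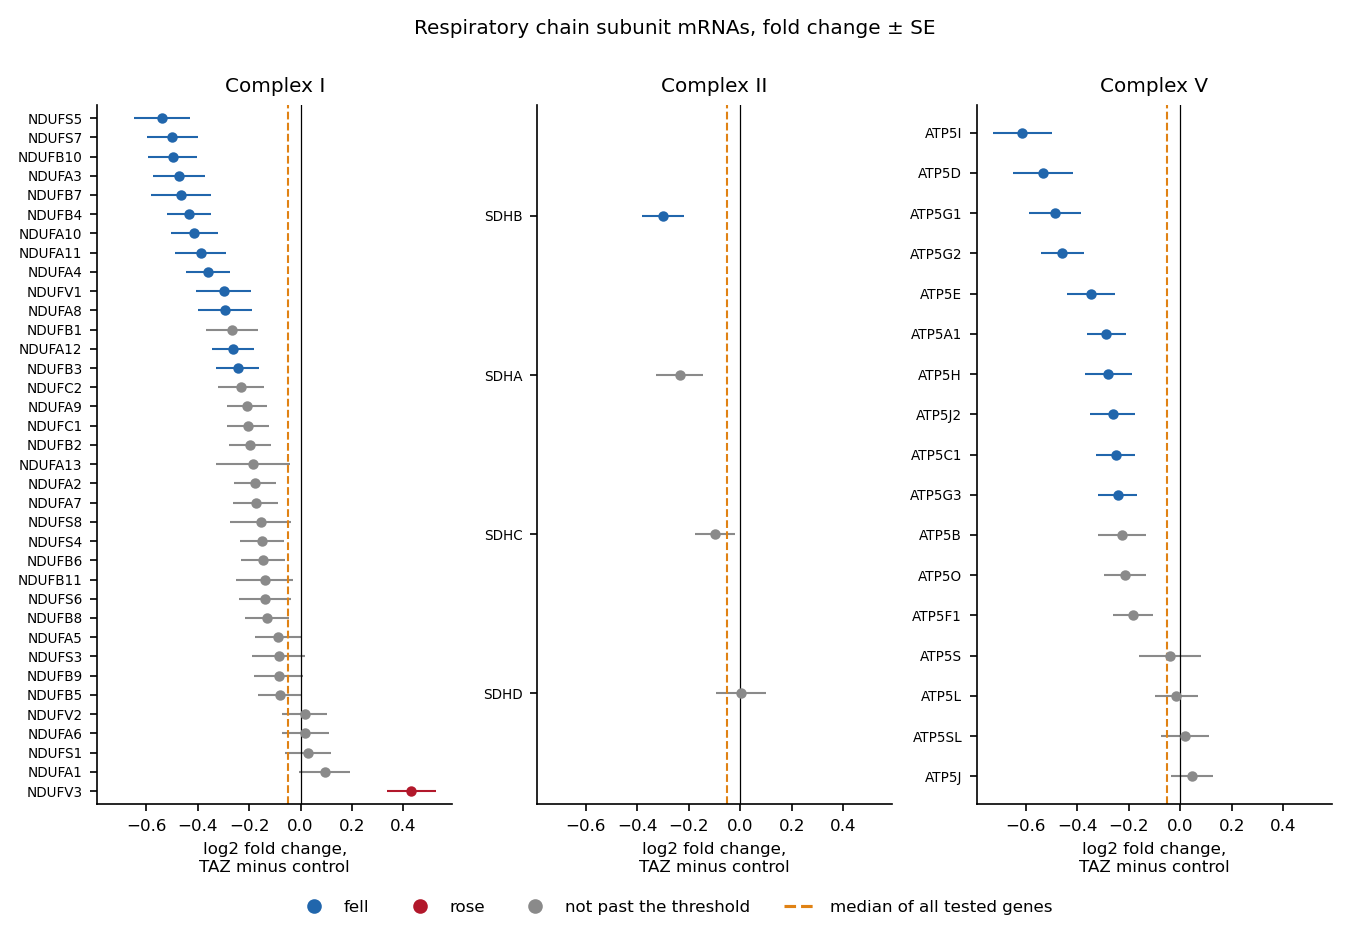
Log2 fold change (TAZ minus control) of each tested member, points with the standard error as bars, by complex. Blue points fell, the red point rose and grey points did not pass the threshold, and the dashed line marks the median of all tested genes at -0.050. Most points lie below 0, and 1 complex I member is not drawn.

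**Figure D2:**
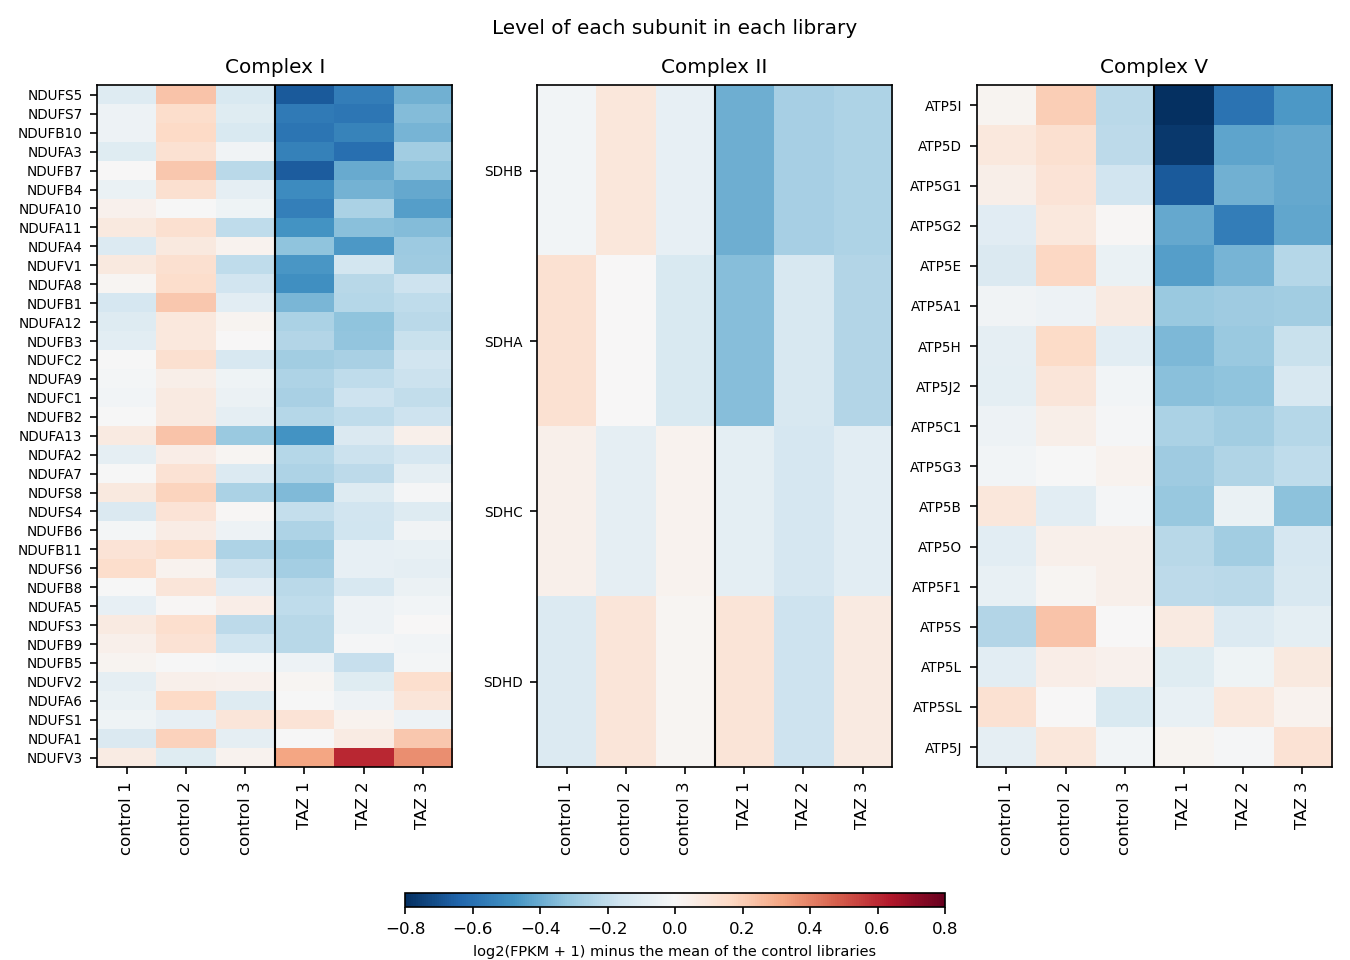
Colour shows log2(FPKM + 1) in each of the 6 libraries minus the mean of the 3 control libraries, 1 row per tested member (1 complex I member is not drawn) and 1 panel per complex. The TAZ columns are mostly blue, deepest in TAZ replicate 1, and the bottom row of complex I, NDUFV3, is red in all 3 TAZ libraries.

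Genes of like length and level were lower too. The tested genes were split into 5 classes of gene length and 5 of mean level, of equal size, and 46 of the 58 members lay in the shortest class (256 to 1646 bases) and the most abundant class at once. In that bin 315 of 821 other genes fell (38.4%; median log2 fold change -0.19), and 22 of the 46 members fell (47.8%; median -0.24). Complex I, with 12 of 30 members in the bin that fell (40.0%) and a median of -0.21, lay near these like genes. For complex V 9 of 13 fell (69.2%), with a median of -0.26. Across lengths, the median of other genes went from -0.14 in the shortest class to 0.012 in the longest. When the length trend was taken out of each library, 12 of the 58 members fell and 4 rose, against 18.4% and 20.5% of all tested genes. The median of complex I was 0.0021 in place of -0.20. Those of complexes II and V were then -0.068 and -0.068, in place of -0.17 and -0.25. Median-ratio scaling of the libraries left 16 members that fell and 1 that rose, with 18.6% of all tested genes higher and 16.9% lower in place of 15.7% and 22.1%. Of the 24 falls, 11 were called under each of the 17 other ways of processing tried, and so was the 1 rise. They were NDUFS7, NDUFS5, NDUFA3, NDUFA10, NDUFB4, NDUFB7 and NDUFB10 of complex I and ATP5D, ATP5G1, ATP5G2 and ATP5I of complex V. The other 13 were lost under at least 1 alternative. How many of all tested genes kept their calls likewise was not counted, so 11 of 24 cannot be called high or low for these members.

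**Figure D3:**
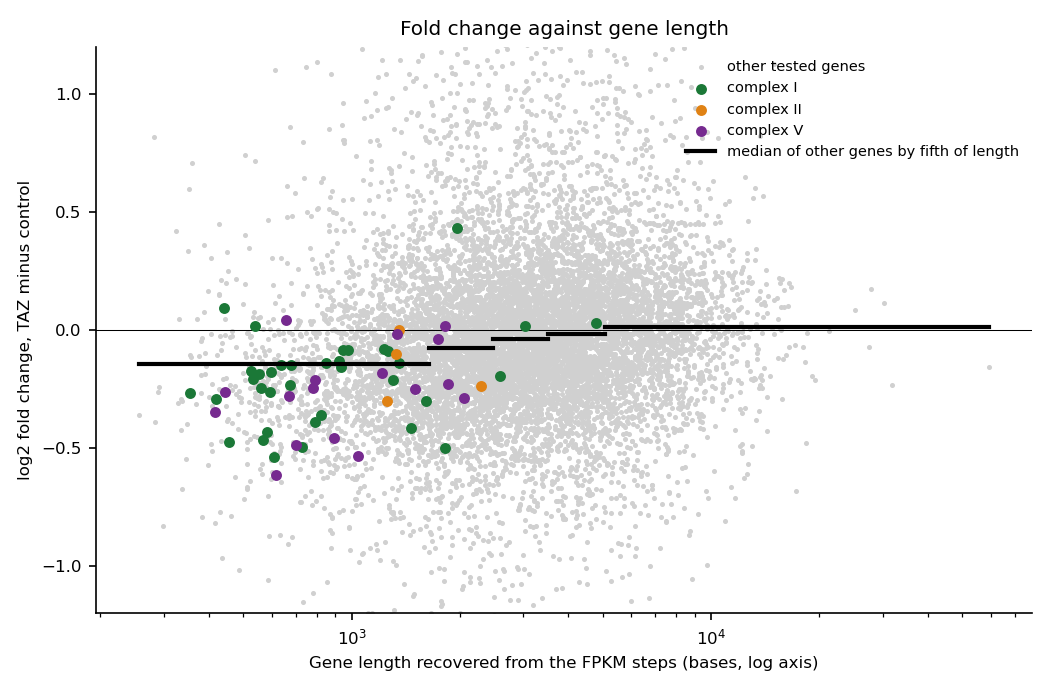
Log2 fold change (TAZ minus control) against gene length in bases on a log axis, for members by complex (coloured points, 1 of complex I not drawn) and other tested genes (grey). Black bars give the median of the other genes in each of 5 classes of length, from -0.14 for the shortest to 0.012 for the longest. The vertical axis is limited to ±1.2, so that genes with larger changes are not drawn.

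Complex I has a catalytic core that takes electrons from NADH through a chain of iron-sulfur clusters to ubiquinone, and a larger set of accessory subunits around it. Of its 7 nuclear core subunits 2 fell (28.6%) and 0 rose, against 22.1% and 15.7% of all tested genes. Their median log2 fold change was -0.16. NDUFS7, which carries the last iron-sulfur cluster before ubiquinone, read 28.8, 32.8 and 27.6 FPKM in the controls and 19.7, 19.5 and 23.1 FPKM in the TAZ libraries. The groups did not overlap, and NDUFS7 fell to 0.699 times its control level (adjusted p = 0.00151 by limma, log2 fold change -0.50, SE 0.10). NDUFV1, which binds NADH and FMN, also fell (108 ± 13.0 to 87.2 ± 9.8 FPKM, limma adjusted p = 0.0433), but its groups overlapped and it was not called once control replicate 1 or 2 or TAZ replicate 1 or 3 was left out or the length trend was removed (adjusted p = 0.13). The threshold was missed by NDUFS8, an iron-sulfur subunit (adjusted p = 0.327), and NDUFS3, which carries no cluster (adjusted p = 0.551). The largest core subunit, NDUFS1, read 18.8, 18.3 and 20.7 FPKM in the controls and 20.8, 19.6 and 18.6 FPKM in the TAZ libraries. The groups overlapped, and the 95% interval of its log2 fold change ran from -0.16 to 0.22. NDUFV2, an iron-sulfur subunit beside NDUFV1, had an interval from -0.17 to 0.21. NDUFS1 and NDUFV2 are also the longest genes of the complex, at 4786 and 3040 bases.

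Among the 29 accessory subunits of complex I 10 fell (34.5%), 1 rose (3.45%) and 18 did not pass, with a median of -0.20. Of all tested genes 22.1% fell and 15.7% rose, and 38.4% of genes outside the members fell in the shortest and most abundant bin. NDUFS5, an accessory subunit on the intermembrane space side, had the largest fall of the complex. Its values were 135, 170.4 and 134 FPKM in the controls and 90.9, 98.9 and 111 FPKM in the TAZ libraries. All TAZ values lay below all control values (adjusted p = 0.00166 by limma, log2 fold change -0.54, SE 0.11). NDUFB10, a subunit of the distal membrane arm, stood at 102, 117 and 96.5 FPKM and then at 69.6, 72.1 and 80.9 FPKM, again without overlap (adjusted p = 0.00119 by limma, log2 fold change -0.50, SE 0.10). Of the 11 NDUFB genes, which build that arm, 4 fell (36.4%, near the 38.4% of that bin). All 11 had negative fold changes, from -0.50 to -0.081, beside a median of -0.19 for like genes. With the length trend removed 5 of the 11 were negative and 6 positive, and under cyclic loess normalization 8 were negative. NDUFB4, of the same arm, had 74.2, 84.2 and 73.2 FPKM in the controls and 54.0, 58.9 and 57.8 FPKM in the TAZ libraries. It too was lower in every TAZ library (adjusted p = 0.00158 by limma, log2 fold change -0.43, SE 0.086). The others that fell were NDUFB7, to 0.72 times its control level, and NDUFB3, to 0.841 times, the latter with a call lost without any 1 of 5 libraries (all but control replicate 1) or with the length trend removed (log2 fold change -0.018). In the NDUFA series 5 of 12 fell (41.7%, also near the 38.4% of that bin). NDUFA3, a small membrane subunit, led them at 87.9, 102 and 92.2 FPKM in the controls against 64.3, 61.6 and 77.4 FPKM in the TAZ libraries (adjusted p = 0.00238 by limma, log2 fold change -0.47, SE 0.10). NDUFA10 and NDUFA11 fell to 0.749 and 0.756 times, the latter with a call lost once the length trend was removed (adjusted p = 0.0683). NDUFA12 and NDUFA8 fell to 0.83 and 0.816 times, with calls lost without control replicate 2 or without TAZ replicate 1 or 2 and, for NDUFA8, control replicate 1. With the length trend removed their log2 fold changes were -0.041 and -0.039 (adjusted p = 0.698 and 0.72). Without control replicate 3 NDUFA13, NDUFB1, NDUFB11, NDUFC2 and NDUFS8 also fell, and without control replicate 1 NDUFB1 did. NDUFA1 and NDUFA6 did not pass in either direction: their log2 fold changes were 0.094 (95% interval -0.12 to 0.31) and 0.018 (interval -0.18 to 0.21). With the length trend removed both rose, by 0.34 and 0.25 (limma adjusted p = 0.00217 and 0.0138).

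NDUFV3 was the one tested member that rose. It encodes a small accessory subunit of the NADH-oxidising arm, next to NDUFV1 and NDUFV2. Its level was 26.4, 23.5 and 25.6 FPKM in the controls and 31.5, 38.7 and 32.9 FPKM in the TAZ libraries. Every TAZ library exceeded every control, and the mean was 1.37 times as high (adjusted p = 0.00346 by limma, log2 fold change 0.43, SE 0.10). Over the 17 alternatives its log2 fold change lay between 0.345 and 0.529 and its adjusted p between 0.000853 and 0.019. Set against NDUFV1 in the same library, a pair chosen after the values were seen, NDUFV3 came to 0.233, 0.201 and 0.276 of the NDUFV1 FPKM in the controls and to 0.409, 0.4 and 0.374 in the TAZ libraries.

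NDUFA4 carries a complex I name but is now assigned to complex IV, and NDUFA4L2 is its hypoxia-inducible relative. NDUFA4, the most abundant member with an NDUF name, fell from 150.3, 171 and 165 FPKM in the controls to 129.5, 117 and 132 FPKM in the TAZ libraries, with no overlap (adjusted p = 0.00526 by limma, log2 fold change -0.36, SE 0.086). With the length trend removed its call was lost (log2 fold change -0.17, adjusted p = 0.12). NDUFA4L2 was the only member below the filter. On the scale above it had 13, 5 and 9 fragments in the controls and 14, 37 and 32 in the TAZ libraries, that is 0.242 ± 0.104 against 0.701 ± 0.281 FPKM. When limma was run with no filter it rose (log2 fold change 0.44, SE 0.13, adjusted p = 0.0468), on a scale that understates the change of low genes. TAZ replicate 1, with 14 fragments, lay close to control replicate 1, with 13.

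Complex II is a tricarboxylic acid cycle enzyme as well as an entry point of the chain, and all 4 of its subunits are nuclear. SDHB, the iron-sulfur subunit, fell from 89.8, 97.0 and 87.0 FPKM in the controls to 69.3, 75.5 and 76.8 FPKM in the TAZ libraries (adjusted p = 0.0122 by limma, log2 fold change -0.30, SE 0.083). The groups did not overlap, but the call was lost without control replicate 2 (adjusted p = 0.0533) or TAZ replicate 1 (0.0618), and with the length trend removed (0.058). SDHA, the flavoprotein that oxidises succinate, was also lower in every TAZ library, at 121, 111 and 102 FPKM against 87.4, 102 and 94.1 FPKM. It missed the threshold (adjusted p = 0.0579 by limma, log2 fold change -0.23, SE 0.091) but passed without control replicate 3 (adjusted p = 0.0227) or TAZ replicate 2 (0.0455). The membrane anchors, which hold the haem, did not pass. SDHC had 89.9, 83.0 and 89.2 FPKM in the controls and 82.5, 79.5 and 82.3 FPKM in the TAZ libraries, narrowly without overlap (adjusted p = 0.341). SDHD had 37.8, 43.7 and 41.2 FPKM and then 43.9, 36.2 and 43.0 FPKM, with overlapping groups and a 95% interval of the log2 fold change from -0.21 to 0.21. The difference between the catalytic subunits and the anchors was not tested.

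ATP synthase consists of the F1 head, in which ATP is made, a ring of c subunits that turns in the membrane, a central stalk that joins them and a peripheral stalk that holds the head still. By name 17 genes belong to it, of which 10 fell (58.8%) and 0 rose (median -0.25). Of all tested genes 22.1% fell and 15.7% rose, and 38.4% of genes outside the members fell in the shortest and most abundant bin. ATP5S and ATP5SL are not subunits: ATP5S is a coupling factor and ATP5SL takes part in complex I assembly. Neither passed, at 5.49 ± 1.04 against 5.27 ± 0.421 FPKM and 16.2 ± 1.46 against 16.4 ± 0.895 FPKM, so that the 10 falls were among 15 true subunits.

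In the F1 head and central stalk 4 of 5 genes fell (80.0%, against 22.1% of all tested genes). ATP5D, the delta subunit of the central stalk, had 164, 169 and 134 FPKM in the controls and 90.2, 116 and 117 FPKM in the TAZ libraries. Control replicate 3 was the lowest control and TAZ replicate 1 the lowest library of all, with no overlap (adjusted p = 0.00291 by limma, log2 fold change -0.53, SE 0.12). ATP5A1, the alpha subunit, was tightly grouped at 342, 339 and 367 FPKM and then 284, 286 and 287 FPKM (adjusted p = 0.0102 by limma, log2 fold change -0.29, SE 0.077). Its call was lost under cyclic loess normalization (limma adjusted p = 0.257), with the trend of length and level together removed (0.0932) and with the replicate number as a block (0.0558). ATP5B, the catalytic beta subunit and the most abundant member, read 413, 366 and 386 FPKM in the controls and 315, 373 and 309 FPKM in the TAZ libraries, where TAZ replicate 2 lay among the controls, and it missed the threshold (adjusted p = 0.071 by limma, log2 fold change -0.23, SE 0.093). Without that library ATP5B fell (log2 fold change -0.31, adjusted p = 0.0249). The epsilon and gamma subunit genes ATP5E and ATP5C1 fell to 0.784 and 0.839 times the control level, both with calls lost when the length trend was removed and the latter also with a call lost without control replicate 2 or any 1 of the 3 TAZ libraries.

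The c ring is made by 3 genes whose mature proteins are the same in mammals. All 3 fell, where 22.1% of all tested genes did. ATP5G2, the most abundant, had 290.2, 328 and 312 FPKM in the controls and 233, 211 and 232 FPKM in the TAZ libraries, without overlap (adjusted p = 0.000831 by limma, log2 fold change -0.46, SE 0.083). ATP5G1 had 123, 129 and 108 FPKM and 74.7, 91.6 and 89.9 FPKM, also without overlap (adjusted p = 0.00205 by limma, log2 fold change -0.49, SE 0.10). ATP5G3 fell least, from 237, 240.2 and 245 FPKM to 197, 204 and 209 FPKM (adjusted p = 0.0228 by limma, log2 fold change -0.24, SE 0.076), and its call was lost without control replicate 3 or any 1 TAZ library (adjusted p from 0.051 to 0.0933). Its log2 fold change was -0.046 once the length trend was removed (adjusted p = 0.63). As a share of the FPKM of the 3 genes, ATP5G3 gave 36.4%, 34.5% and 36.9% in the controls and 39.1%, 40.2% and 39.4% in the TAZ libraries. The shares of ATP5G1 and ATP5G2 overlapped between groups. The sources used here do not say how reads shared between these close relatives were counted.

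Of the small membrane subunits ATP5I, subunit e, had the largest fall of all members. Its values were 122, 138 and 104 FPKM in the controls and 68.9, 79.9 and 87.5 FPKM in the TAZ libraries, with no overlap (adjusted p = 0.000979 by limma, log2 fold change -0.61, SE 0.11). ATP5J2, subunit f, fell less (209 ± 13.1 to 174 ± 14.2 FPKM, adjusted p = 0.0308) and was not called once control replicate 2 or TAZ replicate 1 or 2 was left out. ATP5L, subunit g, did not pass at 86.4 ± 4.53 against 85.5 ± 5.33 FPKM (95% interval -0.20 to 0.17). In the peripheral stalk 1 of 4 fell (25.0%, against 22.1% of all tested genes). It was ATP5H, subunit d (151 ± 14.6 to 124 ± 8.06 FPKM, limma adjusted p = 0.0279), with a call lost in the same 3 cases as ATP5J2. ATP5J2 went to -0.014 and ATP5H to -0.068 once the length trend was removed (log2, adjusted p = 0.882 and 0.412). ATP5O and ATP5F1 did not pass at 0.862 and 0.88 times the control level (adjusted p = 0.0546 and 0.0802). ATP5J, coupling factor F6, stood at 147, 164 and 152 FPKM in the controls and 157, 154 and 168 FPKM in the TAZ libraries, with overlap and an interval from -0.13 to 0.22. With the length trend removed it rose (log2 fold change 0.26, adjusted p = 0.00835). ATP5I and ATP5J are of like length, at 614 and 656 bases, and the difference between their fold changes was not tested.

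**Figure D4:**
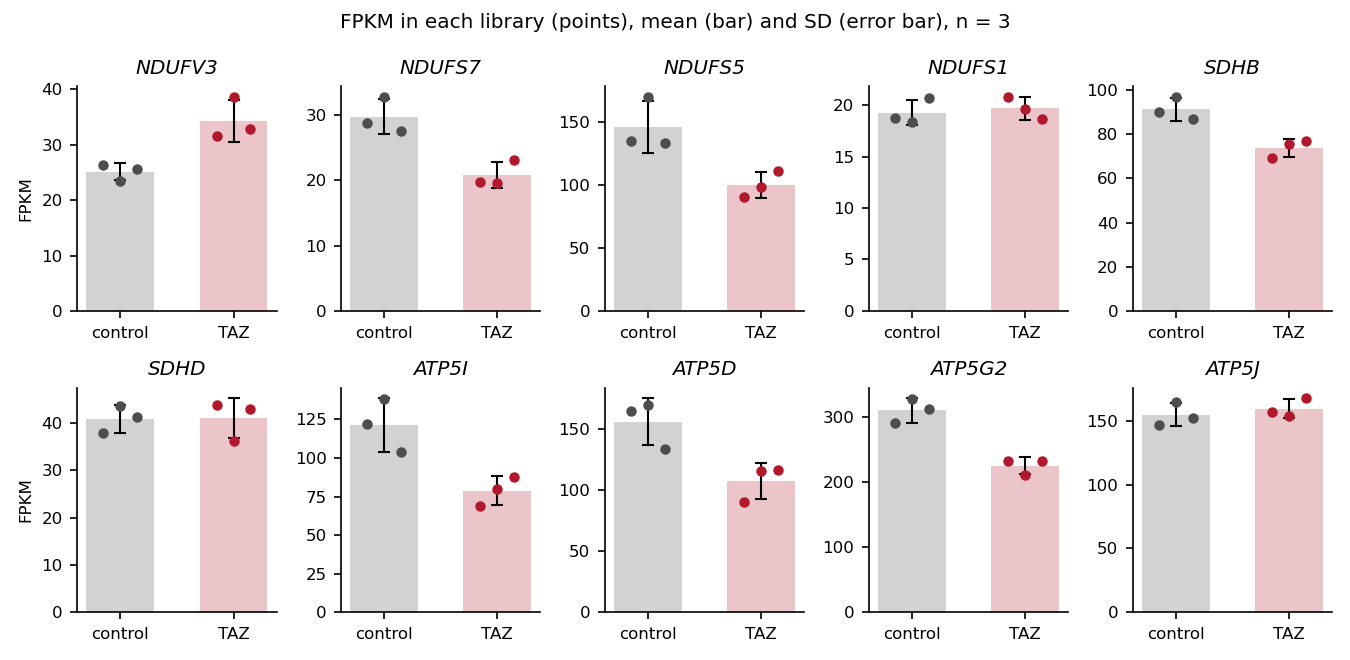
FPKM in each library (points) with the mean (bar) and SD (error bar) of 3 control and 3 TAZ libraries, 1 panel per gene, each axis starting at 0. NDUFV3 is higher in every TAZ library, NDUFS7, NDUFS5, SDHB, ATP5I, ATP5D and ATP5G2 are lower in every TAZ library, and NDUFS1, SDHD and ATP5J overlap between groups.

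Assembly factors build the complexes without being part of them, and 33 of 58 listed were tested. Of these 9 fell (27.3%) and 2 rose (6.06%), with a median of -0.081, against 22.1% and 15.7% of all tested genes. For complex I 5 of 16 fell, with NDUFAF8 and NDUFAF2 at 0.568 and 0.568 times and NDUFAF6 and TMEM126A at 0.68 and 0.759 times the control level. Of those 4, TMEM126A lost its call when the length trend was removed. For complex II 1 of 4 rose and 0 fell. The riser was SDHAF2, which attaches the flavin to SDHA (14.8 ± 1.72 to 20.0 ± 2.8 FPKM, limma adjusted p = 0.0125), with a call lost without control replicate 1 (0.0528) or TAZ replicate 3 (0.0653). For complex IV only 7 of 27 listed factors were tested, and the rest were not analysed here. Of the 7 tested 3 fell, HIGD2A, CMC2 and PET100 (the last not called with the length trend removed). HIGD2A had the lowest adjusted p of all genes on these lists (43.2 ± 1.92 to 23.3 ± 1.67 FPKM, adjusted p = 5.05e-06 by limma, log2 fold change -0.87, SE 0.087). The only tested factor of 6 listed for complex III, TTC19, had 5.67 ± 0.218 against 5.83 ± 0.376 FPKM and did not pass. For ATP synthase TMEM70 rose (20.5 ± 1.29 to 25.7 ± 2.38 FPKM, adjusted p = 0.0217) and FMC1 fell (28.9 ± 3.34 to 22.9 ± 3.17 FPKM, adjusted p = 0.0351). TMEM70 was not called once control replicate 1 or TAZ replicate 1 or 3 was left out, nor FMC1 once replicate 1 or 2 of either group was, or once the length trend was removed.

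Of 17 tested electron carriers, subunits outside the name pattern and genes of ubiquinone synthesis, 5 fell (29.4%) and 2 rose (11.8%), near the 22.1% and 15.7% of all tested genes. COQ8A, a kinase-like protein of ubiquinone synthesis, fell from 2.88 ± 0.0733 to 1.19 ± 0.204 FPKM (adjusted p = 2.59e-05 by limma, log2 fold change -0.83, SE 0.10), and COQ3 and COQ6 of the same pathway to 0.705 and 0.723 times. ETFB, which brings electrons from fatty acid oxidation, fell to 0.701 times. COQ10B and PDSS2 rose to 1.35 and 1.31 times the control level (adjusted p = 0.0146 and 0.0319), with calls lost without control replicate 1 or without TAZ replicate 1 or 3. Nor did both keep their calls without control replicate 2, with no filter or with the replicate number as a block. NDUFAB1, a complex I subunit outside the name pattern used, fell to 0.831 times (adjusted p = 0.0181), a call lost without TAZ replicate 1 or 2 or with the length trend removed (adjusted p = 0.568). CYC1 and CYCS were not analysed here.

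The regulators of mitochondrial genes, a list of transcription factors and of other genes such as POLG, LONP1, LRPPRC and SLIRP, mostly did not pass. Of 17 tested, 2 fell (11.8%, against 22.1% of all tested genes) and 0 rose, with a median of -0.026. PPRC1, a coactivator of the PGC-1 family, fell from 9.13 ± 0.745 to 6.61 ± 0.75 FPKM (limma adjusted p = 0.0072), and the RNA-binding protein gene SLIRP to 0.795 times, the latter not called without control replicate 2 or TAZ replicate 1 or 2, or with the length trend removed. NRF1, GABPA and ESRRA, factors that act on promoters of subunit genes, stood at 2.32 ± 0.196 against 1.98 ± 0.197 FPKM, 7.77 ± 1.0 against 7.76 ± 0.69 FPKM and 10.6 ± 1.12 against 10.4 ± 1.12 FPKM (adjusted p = 0.236, 0.995 and 0.877). TFAM, the packaging factor of mitochondrial DNA, was higher in every TAZ library but did not pass (3.45 ± 0.158 against 4.01 ± 0.463 FPKM, limma adjusted p = 0.214). PPARGC1B stood at 0.957 ± 0.0931 against 1.11 ± 0.303 FPKM (adjusted p = 0.512). PPARGC1A, the coactivator best known for mitochondrial growth in fat, was below the filter at 0.0185 ± 0.00952 against 0.084 ± 0.0216 FPKM. It was higher in every TAZ library, on only 2 to 24 fragments per library. Among 11 markers of mitochondrial content 5 fell (45.5%) and 0 rose, against 22.1% and 15.7% of all tested genes. In 6 of them every TAZ library was below every control, and in 2, VDAC2 and VDAC3, every TAZ library was above. All tested genes gave 28.7% and 19.7%. Set against like genes of length and level, the median marker was higher by 0.022 on the log2 scale, with 5 of the 11 below their like genes. PHB, prohibitin, fell from 87.5 ± 6.75 to 63.8 ± 7.61 FPKM (limma adjusted p = 0.00302). CS, citrate synthase, fell from 93.3 ± 2.32 to 76.4 ± 2.29 FPKM (limma adjusted p = 0.0105). CS was not called under cyclic loess normalization or with the replicate number as a block (limma adjusted p = 0.111 and 0.0559). TOMM22 and TOMM40 of the outer membrane import channel fell to 0.82 and 0.789 times, each with a call lost when the length trend was removed (adjusted p = 0.0634 and 0.0736), or without control replicate 1 or 2 or TAZ replicate 3 and, for TOMM40, TAZ replicate 1.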

How the data were processed

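The authors deposited FPKM values, per the file headers, in 2 tables of 3 libraries each with the same 16285 rows. Per the submitters' processing notes fastp, HISAT2 and HTSeq were used, no versions being named. The sources used here give neither build nor strandedness nor any pooling, and coordinates are therefore left out. The 23 rows with a date in place of a symbol were left out. Symbols of all 59 members matched RefSeq's goat gene list (ARS1.2), which served for names alone.

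Dividing whole fragment numbers by gene length and library total leaves steps between low FPKM values, from which both were recovered. Lengths came out for 94.98% of the rows above 0, counting a number as whole within 0.02, and 99.89% of the lengths were whole within 0.05. The recovered numbers made up 99.65% to 99.7% of the totals. The sources used here do not say whether fragments or reads were counted, so these numbers and the totals hold up to 1 common factor. Depth limits no tested member, all of which had at least 272 fragments in every library.

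Samples were grouped by title. A gene was kept if 3 or more of the 6 libraries reached 1 FPKM (10750 genes). Limma 3.58.1 in R 4.3.3 (empirical Bayes with a mean-variance trend) was run on log2(FPKM + 1), TAZ against control, as a two-sided test adjusted by Benjamini-Hochberg across the kept genes. The fit was also run on simulated data without a length trend, as a check of the code alone. The labels do not say that replicates are separate cultures, so the p-values reflect only how these libraries vary, and that variation could be technical. Since each library was scaled to its own total, levels are relative to the library.

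Like genes are the tested genes outside the members in 5 bins of length by 5 bins of mean level. Values in every library are given for WWTR1, for up to 5 members per complex with the lowest adjusted p in each direction, for isoform sets and for the 2 members per complex with the highest level. Of each list up to 4 genes past the threshold with the lowest adjusted p, and a fixed set of regulators, are named. NDUFS1, NDUFV2, NDUFA1, NDUFA6, ATP5J and other members named outside this rule, and COQ10B and PDSS2, were chosen after their values were seen. The values of 1 complex I member, which enters the counts, are not reported here. The members and lists were chosen with earlier results of these data known. Alternatives were a pseudocount of 0.1, no filter, a stricter filter (mean of 5 FPKM), quantile and cyclic loess normalization, median-ratio scaling, removal of the length trend by loess, no mean-variance trend, voom on the recovered fragments, the replicate number as a block and leaving out each library. Removal of the trend with length and level together was added after seeing the data. Groups of 3 are too small for the search for outlying libraries.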

Additional observations from a re-analysis of the deposited data

How the results depend on the processing

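The median log2 fold change was negative for complexes II and V under all 17 alternatives, from -0.19 to -0.036 and from -0.27 to -0.055. For complex I it ran from -0.24 to 0.0021 and turned positive, to 0.0021 with length correction and 0.0011 with length and level correction. For all tested genes it went to 0.0013, 0.0044 and 0.0073 under cyclic loess, length, and length and level correction. Main counts of falls were 13, 1 and 10 for complexes I, II and V. Cyclic loess gave 8, 0 and 4 falls, length correction 7, 0 and 5, and length and level correction 7, 0 and 4. Of all tested genes 22.1% fell in the main fit, and 16.5%, 18.4% and 17.9% under these settings in that order. Median-ratio scaling gave 6 falls in complex V, and quantile normalization 2 in complex II, where 16.9% and 23.2% of all tested genes fell. Members that rose were 2 with no filter (NDUFV3 and NDUFA4L2), 2 with cyclic loess (NDUFV3 and ATP5J), and 4 with either length correction (NDUFV3, NDUFA1, NDUFA6 and ATP5J). Of all tested genes 10.9% rose with no filter, 19.2% with cyclic loess, 20.5% with length correction and 20.7% with length and level correction. ATP5J2 went to 0.0053 with length and level correction. Of 78 tested pathway list genes 21 fell and 4 rose, against 22.1% and 15.7% of all tested genes. With length correction 13 fell and 8 rose, with length and level correction 8 rose, and with no filter 2 rose. Length and level corrections remove by construction what a member shares with like genes. For the other changes the cause was not tested.

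Leaving out 1 library gave 9 to 17 falls in complex I, 0 to 2 in complex II and 6 to 10 in complex V, with 1 riser each time, and 15 to 26 falls and 0 to 5 rises in the pathway lists. Of all tested genes 16.9% to 23.4% then fell and 12.9% to 17.5% rose. The fewest falls in complex V came without TAZ replicate 1. Complex II had 0 falls without control replicate 2 or TAZ replicate 1 and 2 without control replicate 3 or TAZ replicate 2, and no list gene rose without control replicate 1 or TAZ replicate 3.

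No pairing of the libraries by replicate number was seen, though 3 libraries per group are too few to exclude one. Deviations from the group means correlated at -0.436, -0.112 and -0.403 between same-numbered libraries, and no library correlated best with its own number. Between other numbers the values reached 0.691 (control replicate 3 with TAZ replicate 1), 0.552 (control 2 with TAZ 3) and 0.534 (control 1 with TAZ 2). With the replicate block 10 members of complex I, 1 of complex II and 5 of complex V fell, as did 18.3% of all tested genes. Alternatives for complexes III and IV were not run, since those genes were not analysed here.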

Other observations

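Ribosomal protein genes, which are also short and abundantly transcribed, gave values beside which the subunits can be read. Of 77 tested genes for cytosolic ribosomal proteins 44 fell (57.1%) and 0 rose, with a median log2 fold change of -0.28. Their median stood at -0.059, 0.16 and -0.091 (log2, relative to the control mean) in control replicates 1, 2 and 3 and at -0.34, -0.29 and -0.17 in TAZ replicates 1, 2 and 3. Of 77 tested genes for mitochondrial ribosomal proteins, which translate the subunits encoded in mitochondrial DNA, 24 fell (31.2%) and 2 rose (2.6%), with a median of -0.19. Among all tested genes 22.1% fell and 15.7% rose, and 38.4% of genes outside the members fell in the shortest and most abundant bin. Set against like genes of length and level, the median member of complex I was lower by 0.016 on the log2 scale, that of complex V by 0.074, the cytosolic ribosomal proteins by 0.093 and the mitochondrial ones by 0.051. These differences between groups of genes were not tested, and the groups were chosen for comparison with earlier results known.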
